A study of Mus musculus with 6 samples.

Results

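Hepatic stellate cells (HSCs) are the vitamin A-storing pericytes of the liver sinusoid, and 6 genes known from these cells were followed in livers after ischemia-reperfusion (I/R). Hgf, Des, Ecm1 and Hand2 stand for the quiescent cell or its lineage, and Acta2 and Tagln for the activated, contractile cell. They were taken by gene name from the deposited table, and all 6 were present among its 3201 genes. The livers came from mice that all carried the loxP-flanked Fgf18 allele and all underwent hepatic I/R. In 3 of them the allele was left intact (Fgf18 f/f, whose label gives only "IR" as the genotype) and in 3 it was deleted by Cre under the GFAP promoter (Fgf18ΔHSC, labelled as FGF18 knockout). All mice had a C57BL/6 background. In the I/R model, branches of the portal vein to the left and middle lobes were clamped for 1 h, and reperfusion lasted 6 h. The series title gives male mice, and the age of the mice is not given in the sources used here. The GFAP promoter is also active in glia, so the deletion is defined by the promoter and not by the liver cell type alone. No liver without I/R was part of the comparison. Fgf18 was not analysed here, and no check of the genotypes by the level of the targeted gene was made.

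A quiescent HSC stores retinyl esters, wraps the sinusoid and secretes growth factors for the hepatocyte. After injury it can turn into a myofibroblast, which builds actin stress fibres and lays down collagen, and part of that switch runs through TGF-beta and the serum response factor. Both states share lineage genes, so a marker of the quiescent state need not disappear at once when contractile genes come on.

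RNA-seq was performed on whole livers, and fewer or more cells of a type cannot be told apart from less or more RNA per cell. The deposited table held only genes with an absolute log2 fold change of at least 1 and an unadjusted p under 0.05 in a comparison of these same livers. A listed gene therefore had to differ, and the tests below give the size of a difference against the spread between livers without being independent evidence of it. Values were read as TPM, reads per kilobase of transcript scaled to a common library total. The unit is not named in the table, and FPKM, which has the same form, cannot be told apart from TPM here. The value of 1 read on a gene of 1 kb ran from 0.0374 to 0.0655 TPM over the 6 libraries, from which whole reads were recovered. Liver identity was visible in hepatocyte enzymes such as Cyp2e1, at 1786 ± 152 TPM (SD, n = 3) in Fgf18 f/f and 569 ± 113 TPM (SD, n = 3) in Fgf18ΔHSC livers. HSC RNA was visible in Lrat, the enzyme that esterifies retinol for storage, at 0.216 ± 0.0767 and 0.476 ± 0.0988 TPM (SD, n = 3 per group).

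All 6 genes were higher in Fgf18ΔHSC livers, and for each of them the lowest Fgf18ΔHSC liver lay above the highest Fgf18 f/f liver. Each passed both limits set for the limma test, 0.05 for the p adjusted across the table by Benjamini and Hochberg, and 1 for the size of the log2 fold change. A gene past both is named as called or as having passed the threshold. Of all genes in the table, 71.7% were called, 41.6% as higher and 30.0% as lower. Among the same genes 62.0% had all Fgf18ΔHSC livers above all Fgf18 f/f livers, and 96.3% had groups that did not overlap in either direction. Log2 fold changes, on the log2(TPM + 0.1) scale, ran from 1.0 for Hgf to 1.92 for Acta2 with a median of 1.35. Over all listed genes the median was 0.88, and over the 1392 genes with a mean level in the range of the 6 genes, 0.470 to 9.30 TPM, it was 1.02, with 52.2% called higher and 35.1% called lower. The 4 quiescent or lineage genes and the 2 activated genes thus moved in the same direction. The sizes of their changes were mixed, with the activated gene Tagln (1.26) below Ecm1 (1.44) and Hand2 (1.84).

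**Figure D1:**
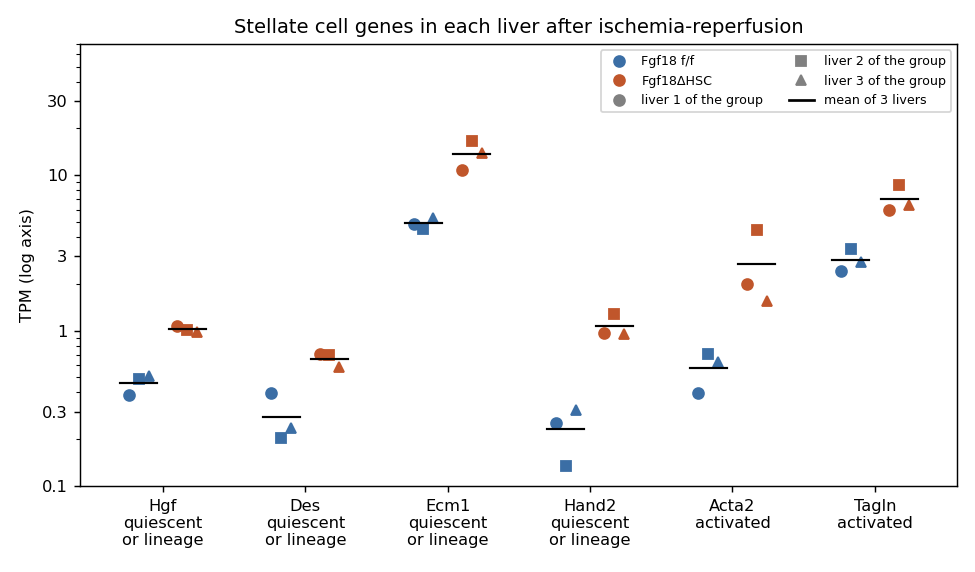
TPM of the 6 genes in each liver, on a log axis. Blue marks are Fgf18 f/f livers, orange marks Fgf18ΔHSC livers, the shape gives the liver of its group, and the bar is the mean of 3 livers. For all 6 genes the orange marks lie above the blue ones, with the widest spread for Acta2 in Fgf18ΔHSC livers, from 1.56 to 4.45 TPM.

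The promoters of 3 of the genes are shown, a contractile, a filament and a lineage gene, because that of Acta2 holds an element that the windows of Des and Hand2 lack. RefSeq windows of GRCm38.p6 from 250 bases before to 50 bases after the transcript start were at hand for 5 of the 6 genes. Capitals mark 3 kinds of element, searched on both strands: the E-box CANNTG, which basic helix-loop-helix factors such as Hand2 bind, the TATA sequence TATAAA, and the CArG box, the site of serum response factor, with 1 substitution allowed among its central A and T bases. The windows lie at chr19:34255324-34255623 on the minus strand for Acta2, at chr1:75360042-75360341 on the plus strand for Des and at chr8:57320733-57321032 on the plus strand for Hand2.
Acta2 promoter: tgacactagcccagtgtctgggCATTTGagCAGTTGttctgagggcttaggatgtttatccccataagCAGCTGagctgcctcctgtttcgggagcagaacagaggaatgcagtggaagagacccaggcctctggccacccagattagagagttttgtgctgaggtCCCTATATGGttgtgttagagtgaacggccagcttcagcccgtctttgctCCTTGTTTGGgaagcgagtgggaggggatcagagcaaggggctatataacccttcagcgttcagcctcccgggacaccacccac
Des promoter: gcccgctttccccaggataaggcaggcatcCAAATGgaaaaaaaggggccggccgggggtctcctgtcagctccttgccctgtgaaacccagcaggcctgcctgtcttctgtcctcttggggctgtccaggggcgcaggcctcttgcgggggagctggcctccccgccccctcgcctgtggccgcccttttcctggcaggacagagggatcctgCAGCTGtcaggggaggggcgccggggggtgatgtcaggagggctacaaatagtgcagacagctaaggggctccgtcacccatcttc
Hand2 promoter: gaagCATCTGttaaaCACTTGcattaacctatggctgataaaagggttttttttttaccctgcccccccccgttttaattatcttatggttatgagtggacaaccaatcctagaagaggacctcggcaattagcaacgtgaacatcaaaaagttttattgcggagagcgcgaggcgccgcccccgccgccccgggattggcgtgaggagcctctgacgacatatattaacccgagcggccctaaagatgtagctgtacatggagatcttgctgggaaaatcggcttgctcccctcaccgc
The Acta2 window held 2 CArG boxes with 1 substitution each, CCCTATATGG from -84 to -75 and CCTTGTTTGG from -34 to -25, counted from the transcript start. Of the 32851 windows in the RefSeq table, 8.50% held such a sequence and 1.63% an unaltered CArG box. None of the windows of Hgf, Des, Ecm1 and Hand2 held either form. Tagln had no entry in the RefSeq table and was not searched. The E-box was found 3 times in the Acta2 window and 2 times each in the Des and Hand2 windows, but 72.3% of all windows hold one. Among the 5 genes TATAAA occurred in Ecm1 alone, from -27 to -22, against 13.6% of all windows. A match of letters is a description of the window and not evidence of binding.

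Among the quiescent genes, Hgf encodes hepatocyte growth factor, the ligand of the Met receptor on hepatocytes, and lies on chromosome 5 of GRCm38 (16553495 to 16620152). It stood at 0.385, 0.487 and 0.510 TPM in Fgf18 f/f mice, against 1.07, 1.0 and 0.978 TPM in Fgf18ΔHSC mice. The Fgf18ΔHSC livers were close to each other, with a coefficient of variation of 4.89%, and all lay well above the Fgf18 f/f livers. Mean levels were 0.461 ± 0.0667 and 1.02 ± 0.0498 TPM (SD, n = 3 per group), a 2.21-fold ratio. The log2 fold change of 1.0 (SE, standard error, 0.19, limma adjusted p = 0.00138) sat at the limit for a call, and the call was lost without Fgf18 f/f liver 1 (0.90) or Fgf18ΔHSC liver 1 (0.97). From 66 to 160 reads per liver lay behind these values.

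Des encodes desmin, an intermediate filament protein of muscle and of rodent HSCs, on chromosome 1 (75360329 to 75368579). Its levels were 0.398, 0.203 and 0.237 TPM in Fgf18 f/f mice, against 0.706, 0.697 and 0.579 TPM in Fgf18ΔHSC mice. Fgf18 f/f liver 1 was the nearest to the other group, and the lowest Fgf18ΔHSC liver was 1.46-fold above it. Des rose from 0.279 ± 0.104 to 0.661 ± 0.0711 TPM (SD, n = 3 per group), with a log2 fold change of 1.03 (SE 0.24, limma adjusted p = 0.00411). Between 16 and 55 reads per liver carried this difference. Leaving out Fgf18 f/f liver 2 (0.89) or 3 (0.96), or Fgf18ΔHSC liver 1 (0.99) or 2 (just under 1), brought the log2 fold change under the limit of 1.

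Ecm1, extracellular matrix protein 1, is a secreted glycoprotein known in liver for holding latent TGF-beta inactive (chromosome 3, 95734147 to 95739569). It had the highest level of the 6 genes in every liver, at 4.89, 4.54 and 5.31 TPM in Fgf18 f/f and 10.7, 16.5 and 13.8 TPM in Fgf18ΔHSC livers. The Fgf18 f/f livers differed little from each other, and the lowest Fgf18ΔHSC liver was 2.02-fold above the highest of them. The mean went from 4.91 ± 0.384 to 13.7 ± 2.90 TPM (SD, n = 3 per group), a log2 fold change of 1.44 (SE 0.17, limma adjusted p = 0.000149). With 241 to 690 reads per liver it was also the most deeply covered of the 6. The gene is transcribed in hepatocytes as well as in HSCs, so its level is not a measure of HSCs alone.

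Hand2 encodes a basic helix-loop-helix transcription factor that marks the mesenchymal lineage of the HSC (chromosome 8, 57320983 to 57324633). Fgf18 f/f livers had 0.254, 0.134 and 0.307 TPM, from 16, 7 and 13 reads. Fgf18ΔHSC livers had 0.964, 1.28 and 0.946 TPM, from 47, 46 and 44 reads. The lowest Fgf18ΔHSC liver was 3.08-fold above the highest Fgf18 f/f liver, the widest gap among the 6 genes. The mean ratio was 4.59-fold and the log2 fold change 1.84 (SE 0.26, limma adjusted p = 0.000371). The coefficient of variation of the Fgf18 f/f livers was 38.4%, where counting alone at their mean of reads gives 28.9%.

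Hand2 shares its start region with Hand2os1, a long noncoding RNA transcribed from the opposite strand, listed in the table under the name AV026068. The promoter windows of both genes overlap by 223 bases, and their exons overlap by 461 bases. AV026068 stood at 0.0756, 0.0699 and 0.156 TPM in Fgf18 f/f mice, against 0.270, 0.444 and 0.264 TPM in Fgf18ΔHSC mice, so the groups did not overlap. It rose with a log2 fold change of 1.09 (SE 0.26, limma adjusted p = 0.004). Liver 2 was the lowest of its group in Fgf18 f/f and the highest in Fgf18ΔHSC for both transcripts.

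Acta2, alpha smooth muscle actin, is the classical mark of the activated HSC and is also expressed by vascular smooth muscle (chromosome 19, 34241090 to 34255590). It stood at 0.398, 0.706 and 0.623 TPM in Fgf18 f/f mice, against 2.0, 4.45 and 1.56 TPM in Fgf18ΔHSC mice. Fgf18ΔHSC liver 2 stood apart, 2.85-fold above liver 3 of the same group. The group mean rose from 0.576 ± 0.159 to 2.67 ± 1.55 TPM (SD, n = 3 per group), a 4.64-fold ratio and a log2 fold change of 1.92 (SE 0.38, limma adjusted p = 0.00166). Without Fgf18ΔHSC liver 2 the mean of that group was 1.78 TPM and the log2 fold change 1.5. The coefficient of variation of 58.2% in Fgf18ΔHSC livers was far above the 11% that counting gives. The reads behind these values were whole numbers, 19, 28, 20, 74, 121 and 55 in the order above, with a transcript length of 1781 bases instead of the 2196 bases of the annotation used here.

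Tagln, transgelin or SM22-alpha, is an actin-binding protein of the contractile cell (chromosome 9, 45929619 to 45936058). Fgf18 f/f livers had 2.42, 3.36 and 2.76 TPM, and Fgf18ΔHSC livers 5.94, 8.69 and 6.41 TPM. As for Acta2, liver 2 was the highest of both groups. Tagln rose from 2.85 ± 0.476 to 7.01 ± 1.47 TPM (SD, n = 3 per group), with a log2 fold change of 1.26 (SE 0.19, limma adjusted p = 0.000464).

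A transcript on the opposite strand, listed as AC122273.1 and named Gm48529 in GENCODE, shares 1241 exon bases with Tagln. It was counted with 135, 133, 91, 247, 261 and 234 reads in the 6 livers, Fgf18 f/f first, where Tagln had 129, 149, 99, 245, 264 and 252. AC122273.1 rose with a log2 fold change of 1.29 (SE 0.18, limma adjusted p = 0.000334). Libraries were stranded, but the strand setting of the read counting is not given in the sources used here, so reads of Tagln and AC122273.1 cannot be told apart. The same holds for Hand2 and AV026068 over their shared bases.

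**Figure D2:**
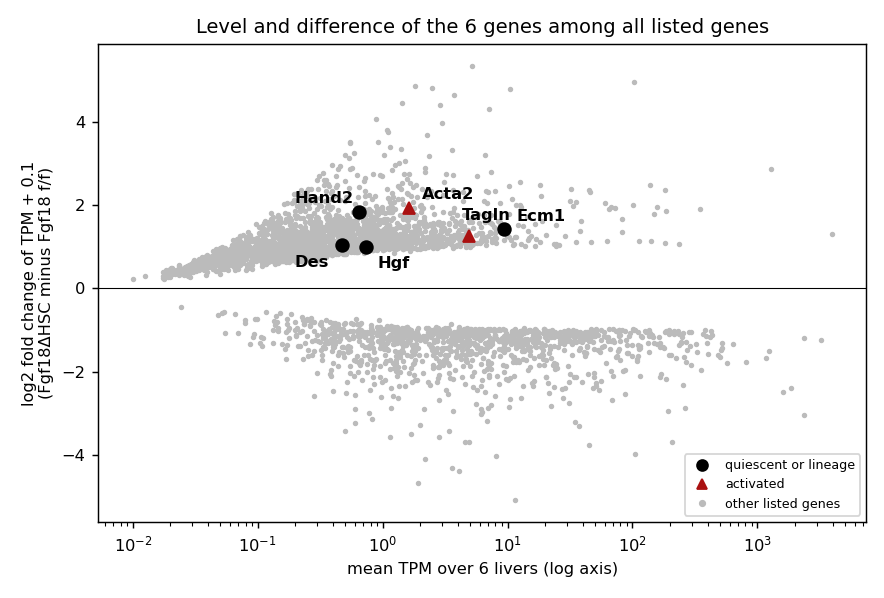
Log2 fold change of log2(TPM + 0.1), Fgf18ΔHSC minus Fgf18 f/f, against the mean TPM over 6 livers on a log axis, 1 point per listed gene. Black circles are the quiescent or lineage genes, red triangles the activated genes and grey points the other listed genes. Acta2 (1.92) and Hand2 (1.84) stand in the upper part of the higher genes, Hgf (1.0) and Des (1.03) below their median of 1.12, and the gap around 0 comes from the filter on the deposited table.

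Set among the 2083 listed genes that were higher in Fgf18ΔHSC livers, 192 had a larger log2 fold change than Acta2 and 225 a larger one than Hand2. Ecm1 was exceeded by 525 of them and Tagln by 772. Des and Hgf were exceeded by 1255 and 1334, and so lay below the median of the higher genes, 1.12. A level per length also orders the 6 genes within a liver. Ecm1, Tagln and Acta2 held the top places in that order in all 6 livers. Below them, the ranges of Hgf, Des and Hand2 overlapped between neighbours in Fgf18 f/f livers, as did those of Acta2 and Hgf. In Fgf18ΔHSC livers Des came last in all 3, while Hgf and Hand2 overlapped. Fgf18ΔHSC liver 2 had the highest level of its group for 4 of the 6 genes (Ecm1, Hand2, Acta2 and Tagln) and liver 1 for Hgf and Des. Of all 2083 higher genes, 26.9% were highest in liver 2 and 48.9% in liver 3.

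A ratio of 2 genes from the same library does not depend on how the libraries were scaled. Among the 15 ratios of the 6 genes, 9 overlapped between the groups and 6 did not. For comparison, 20.2% of all pairs of higher listed genes, taken over those above 0 in every liver, had ratios that did not overlap. Each of the 6 separated ratios involved Hand2 or Acta2. Acta2 stood at 0.164, 0.210 and 0.226 of Tagln in Fgf18 f/f mice, against 0.337, 0.512 and 0.244 of Tagln in Fgf18ΔHSC mice. The groups did not overlap, but Fgf18ΔHSC liver 3 was close to the Fgf18 f/f range. The difference of the mean log2 ratio was 0.81, from -2.34 ± 0.24 to -1.52 ± 0.54 (SD, n = 3 per group), and 0.53 without Fgf18ΔHSC liver 2.

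Hgf to Acta2 was 0.965, 0.690 and 0.818 in Fgf18 f/f mice, against 0.536, 0.225 and 0.626 in Fgf18ΔHSC mice. This ratio of a quiescent to an activated gene was lower by 0.95 on the log2 scale, and by 0.50 without Fgf18ΔHSC liver 2. Among the quiescent or lineage genes themselves, Hgf to Hand2 was lower by 1.12, from 1.51, 3.65 and 1.66 to 1.11, 0.782 and 1.03. Des to Hand2 was lower by 0.97 and Ecm1 to Hand2 by 0.81. Fgf18 f/f liver 2, with 7 Hand2 reads, weighed on these values: without it Hgf to Hand2 was lower by 0.72 and Ecm1 to Hand2 by 0.51. With 0.1 TPM added to both genes Ecm1 to Hand2 was lower by 0.40. The separation for Des to Hand2 was narrow, with 0.771 in the lowest Fgf18 f/f and 0.733 in the highest Fgf18ΔHSC liver. Hand2 to Tagln was higher by 0.98, by 0.50 without Fgf18 f/f liver 2 and by 0.57 with 0.1 TPM added. Hand2 to Acta2 overlapped between the groups, with a difference of 0.17, as did Hgf to Tagln, with -0.14, and Des to Tagln, with 0.01. Leaving out 1 liver turned the sign of these 3 values, with Hand2 to Acta2 at -0.36 without Fgf18 f/f liver 2 and -0.07 without Fgf18ΔHSC liver 3, Hgf to Tagln at 0.04 without Fgf18ΔHSC liver 2, and Des to Tagln at -0.32 without Fgf18 f/f liver 2, -0.07 without Fgf18 f/f liver 3 and -0.15 without Fgf18ΔHSC liver 1.

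**Figure D3:**
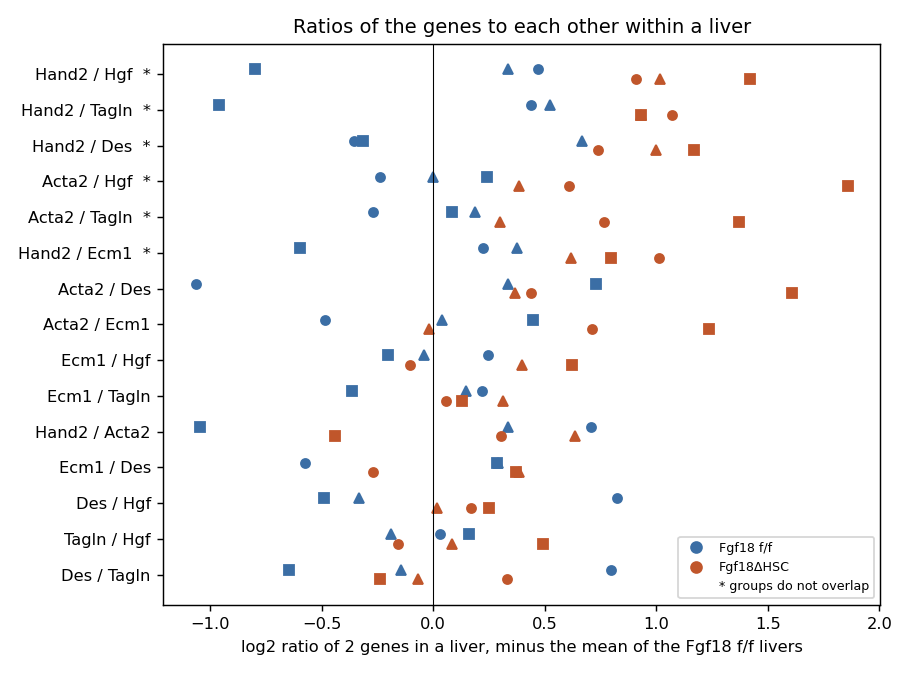
Log2 ratio of 2 genes in each liver, minus the mean of that ratio in the Fgf18 f/f livers, for all 15 pairs, written so that the Fgf18ΔHSC mean is positive. Blue marks are Fgf18 f/f and orange marks Fgf18ΔHSC livers, and an asterisk marks the 6 pairs whose groups do not overlap, all with Hand2 or Acta2 as the relatively higher gene.

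The size of the differences depended on how the livers were scaled. When every library was divided by the median, over listed genes, of its ratios to the average library, the log2 fold changes of all listed genes moved by a median of -0.88. All 6 genes remained higher under that scaling, at 1.03 for Hand2, 1.0 for Acta2, 0.42 for Ecm1, 0.25 for Tagln, 0.21 for Des and 0.11 for Hgf. Hand2 alone stayed past the threshold (limma adjusted p = 0.0122), while Acta2 had an adjusted p of 0.0557 and Hgf one of 0.705. Under that scaling 8.78% of the listed genes were called higher and 34.8% lower. The rescaling assumes that the listed genes balance, and they had been selected for a difference, so neither scaling is neutral.

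**Figure D4:**
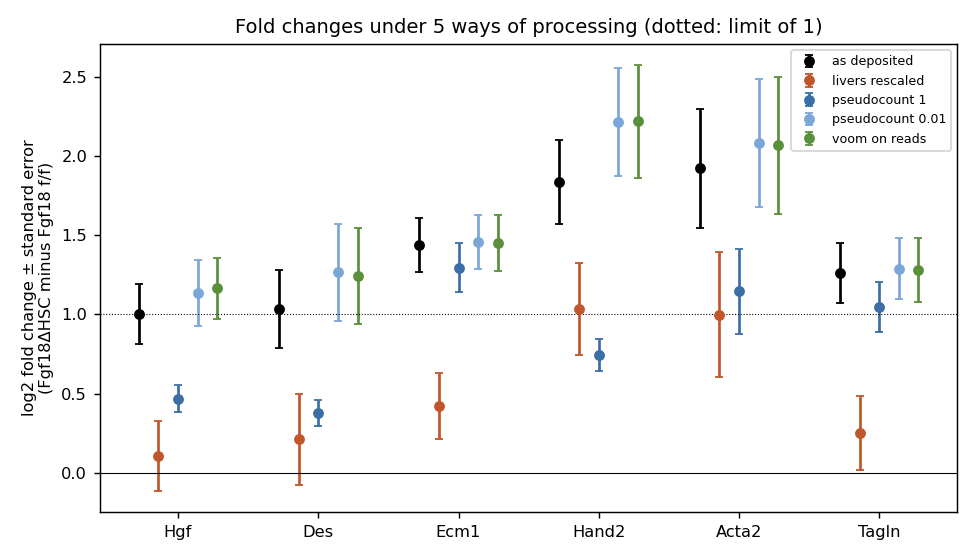
Log2 fold change with its standard error for the 6 genes, Fgf18ΔHSC minus Fgf18 f/f, with the values as deposited, with rescaled livers, with pseudocounts of 1 and 0.01, and with limma-voom on recovered reads. All points lie above 0, and the rescaled points fall under the dotted limit of 1 for Hgf, Des, Ecm1, Tagln and, at 0.999, Acta2.

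Other genes listed as markers of the HSC in the resting liver were mostly higher, as were 2083 of all 3201 listed genes, with 41.6% of the table called higher. Of 26 such markers 13 were listed, 12 of them higher and 1 lower in Fgf18ΔHSC livers, also with rescaled livers. Of these, 8 rose and 1 fell past the threshold, and rescaling left 1 of each. The median log2 fold change of the 13 was 1.22. Nes, the intermediate filament protein nestin, which is known to be induced in activated HSCs, was the higher gene still called with rescaled livers (1.44). It rose from 0.162 ± 0.0334 to 1.10 ± 0.115 TPM (SD, n = 3 per group; log2 fold change 2.20, limma adjusted p = 5.59e-05). Pdgfrb, a PDGF receptor through which activated HSCs proliferate, rose by 1.89, Gdf2, the ligand BMP9 made by HSCs, by 1.69 and Rgs5, a pericyte regulator of G protein signalling, by 1.55. Lrat (0.88, limma adjusted p = 0.0105) and Reln, the secreted glycoprotein reelin (0.92, limma adjusted p = 0.00209), were under the fold limit. The lower gene was Tmem56, at 36.7 ± 1.51 and 13.9 ± 1.75 TPM (SD, n = 3 per group), a level far above those of the other markers of the list. The summed level of the 13 was lower in Fgf18ΔHSC livers, at 25.9 to 30.8 TPM against 40.8 to 41.6 TPM, with Tmem56 as its largest part.

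Most of the listed matrix and activation genes were higher as well. Of 35 such genes 17 were listed, and 16 of them rose and 1 fell past the threshold, where 52.2% of listed genes in the level range of the 6 genes were called higher and 35.1% lower. These 17 had a median log2 fold change of 1.30. With rescaled livers the 16 remained higher, and 1 of them and the lower gene were called. Ctgf, connective tissue growth factor, rose from 0.576 ± 0.182 to 6.57 ± 0.456 TPM (SD, n = 3 per group; log2 fold change 3.34, limma adjusted p = 1.76e-05). Spp1, osteopontin, which cholangiocytes also make, rose by 1.98, and Sparc, a collagen-binding matrix protein, by 1.76.

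Of 32 contractile genes beyond Acta2 and Tagln, 9 were listed, 7 of them higher and 2 lower under both scalings. Past the threshold were 5 higher genes and 1 lower gene, a share near the 52.2% called higher among listed genes in the level range of the 6 genes, and with rescaled livers none was called higher and 2 were called lower. Mcam, the adhesion molecule CD146 of pericytes and endothelium, rose by 1.84, Cnn2, a calponin, by 1.59 and Flna, the actin cross-linker filamin A, by 1.54. Pln, phospholamban, a regulator of the calcium pump of muscle, fell by 1.61. Without Fgf18ΔHSC liver 1 or 3, 2 genes were called lower. None of the 20 genes of skeletal and heart muscle fixed as markers was among the listed genes.

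Targets of serum response factor and of stretch moved both ways, with 9 of 20 listed, 6 risen and 3 fallen past the threshold, against 41.6% called higher and 30.0% called lower in the whole table. With rescaled livers 6 were higher, 2 of them called, and 3 lower, all called. Ankrd1, a nuclear and sarcomeric ankyrin repeat protein, rose by 3.68 and Ctgf by 3.34, whereas Abra, an actin-binding activator of this pathway, fell by 4.67 and Ankrd2 by 4.38. Fosb, an immediate early gene named here after its values were seen, fell from 9.78 ± 3.37 to 1.33 ± 0.471 TPM (SD, n = 3 per group). Acta2 and Tagln, also textbook targets of this factor, thus had the direction of 6 of these genes and not that of the other 3.

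For Hgf, 4 of 23 genes of its signalling were listed. Plat, a plasminogen activator, rose by 1.18 (limma adjusted p = 0.00162). Spint1 (0.83, limma adjusted p = 0.103), the inhibitor of the HGF-activating protease, and St14 (0.68, limma adjusted p = 0.108), the protease matriptase, overlapped between the groups. Serpina5, a serine protease inhibitor, had a log2 fold change of -0.84 (limma adjusted p = 0.00724), under the fold limit. With rescaled livers St14 changed sign, at -0.04, Plat was no longer called, at 0.40, and Serpina5 was called lower, at -1.72. Without Fgf18ΔHSC liver 2, 3 of these genes were called higher, as were 1377 of all 3201 listed genes. With all livers and the values as deposited, 41.6% of the table was called higher and 30.0% lower. With rescaled livers these shares were 8.78% and 34.8%.

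For Ecm1, 6 of 29 genes of latent TGF-beta and its receptors were listed, all higher under both scalings and 4 of them called, where 41.6% of the whole table was called higher. The ligand genes Tgfb1 and Tgfb3 rose by 1.22 and 1.34, and Tgfb2 had a log2 fold change of 0.88 (limma adjusted p = 0.0066). Lrrc32, the surface anchor GARP, rose by 1.19, and Thbs1, thrombospondin 1, an activator of latent TGF-beta, by 1.16, while Ltbp1, the latent TGF-beta binding protein, had 0.77 (limma adjusted p = 0.00679). With rescaled livers none of the 6 was called. Without Fgf18ΔHSC liver 3, which had the highest levels of Thbs1 (22.3 TPM) and Lrrc32 (6.11 TPM), 2 of the 6 were called.

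Of 29 lineage transcription factors and partners set beside Hand2, 7 were listed, with 4 higher and 3 lower under both scalings. Twist1, a related helix-loop-helix factor, rose by 1.10, from only 4, 3 and 4 reads in Fgf18 f/f and 10, 5 and 19 in Fgf18ΔHSC livers. The other gene called higher, AV026068, is the noncoding neighbour of Hand2 described above. Id3, an inhibitor of helix-loop-helix factors, fell from 47.4 ± 3.41 to 18.8 ± 3.55 TPM (SD, n = 3 per group; log2 fold change -1.35, limma adjusted p = 0.000136). Id4 had 0.89, the heart and mesenchyme factor Tbx20 0.80, Gata6 -0.96 and Irf1 -0.99, each under the fold limit. Of the 7, 2 were called higher and 1 lower, where 41.6% of the whole table was called higher and 30.0% lower. With rescaled livers Id3, Gata6 and Irf1 were called lower and none higher. The shares of the table were then 34.8% lower and 8.78% higher. The 2 calls of higher genes became 1 without Fgf18 f/f liver 2 or Fgf18ΔHSC liver 2 or 3, and the call of 1 lower gene became 2 without Fgf18 f/f liver 1 or 3 or Fgf18ΔHSC liver 3.

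Beside Des, 6 of 18 intermediate filament genes and partners were listed, 5 higher and 1 lower under both scalings, with 4 and 1 called, against 41.6% called higher and 30.0% called lower in the whole table. Nes rose by 2.20, the neuronal filament gene Prph by 1.85, Cryab, the small heat shock protein that binds desmin, by 1.71, and Vim, vimentin, by 1.62. Prph stood at 0.0401, 0.0722 and 0 TPM in Fgf18 f/f and 0.672, 0.140 and 0.515 TPM in Fgf18ΔHSC livers. The 0.1 TPM added before the logarithm thus weighs on its value. With rescaled livers Nes and Prph were still called higher, while Cryab (0.75) and Vim (0.63) were not. Jup, the junction protein plakoglobin, fell by 1.04, a call lost without Fgf18 f/f liver 1 or Fgf18ΔHSC liver 2 or 3, and the keratin gene Krt7 had 0.82 (limma adjusted p = 0.0443). The change of Des was thus smaller than that of each of these 4 higher genes, a difference that was not tested.

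**Figure D5:**
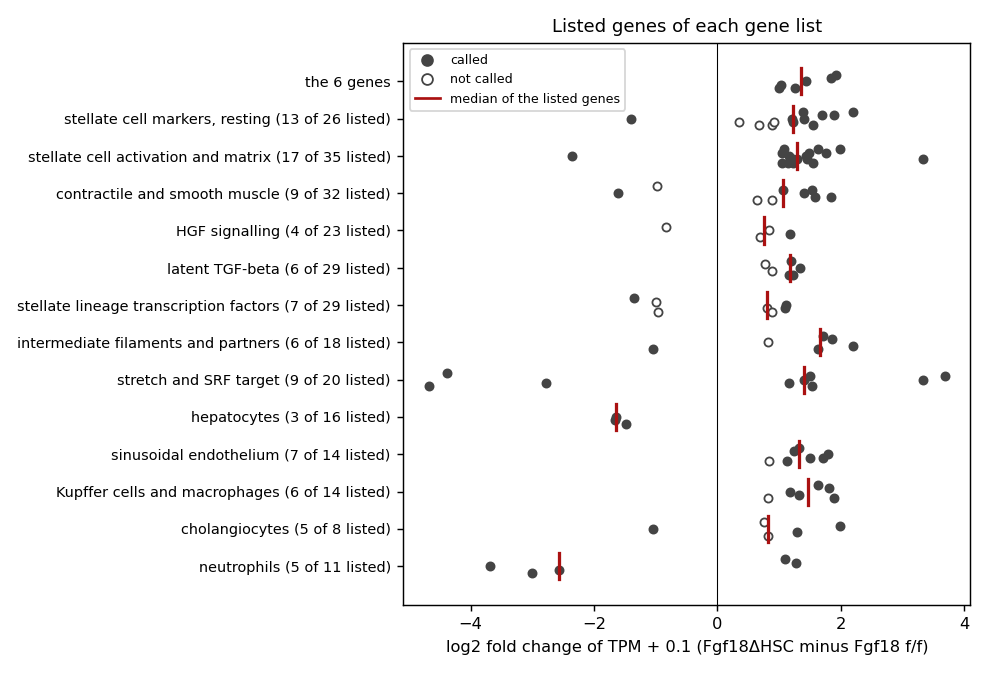
Log2 fold change of the listed genes of each gene list, Fgf18ΔHSC minus Fgf18 f/f, on the log2(TPM + 0.1) scale. Filled points passed the threshold, open points did not, and the red bar is the median of the listed genes, which is 1.35 for the 6 genes, 1.31 for sinusoidal endothelium, 1.47 for Kupffer cells and macrophages and -1.64 for hepatocytes.

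Among markers of other liver cells, those of endothelium and macrophages had the direction of the 6 genes and those of hepatocytes the opposite one. All 7 listed of 14 sinusoidal endothelial markers were higher, 6 past the threshold (41.6% in the whole table), with Pecam1 at 1.79 and Gpr182 at 1.71, and their summed level was 21.2 to 24.1 TPM in Fgf18 f/f and 49.9 to 67.9 TPM in Fgf18ΔHSC livers. All 6 listed of 14 Kupffer cell and macrophage markers were higher, 5 past the threshold, with summed levels of 19.3 to 22.4 and 50.8 to 77.2 TPM. With rescaled livers Adgre1 turned to -0.03, and of both lists 1 gene was called higher, Ccr2, at 1.07. The 3 listed of 16 hepatocyte markers, Cyp2e1, Cyp3a11 and Pck1, were lower under both scalings, with summed levels of 2830 to 3057 TPM and 850 to 1147 TPM. Of 8 cholangiocyte markers 5 were listed, 4 higher and 1 lower, with summed levels of 28.1 to 30.5 and 50.2 to 76.8 TPM. Spp1, which is also on the matrix list, was the largest part of the sum in each Fgf18ΔHSC liver. It stood at 11.5 to 16.1 TPM in Fgf18 f/f and 43.4 to 65.0 TPM in Fgf18ΔHSC livers. The lower marker, Sox9, fell from 14.6 ± 3.20 to 7.04 ± 1.66 TPM (SD, n = 3 per group), so the higher sum is not shared by all these markers. Of 11 neutrophil markers 5 were listed, 2 higher and 3 lower, and their sums overlapped (17.5 to 20.8 and 10.5 to 27.9 TPM). The directions of the cholangiocyte and neutrophil markers were the same under both scalings, and the levels of unlisted markers are unknown here.

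Of 12 portal fibroblast markers 2 were listed, Entpd2, which fell by 1.10, and Fbln2, which overlapped between the groups and was called higher without Fgf18 f/f liver 3 or Fgf18ΔHSC liver 2. Of 8 mesothelial markers 2 were listed and both were lower, with Msln at 0.565 ± 0.604 and 0.0259 ± 0.00443 TPM (SD, n = 3 per group). Fgf18 f/f liver 3 carried much of that first mean, at 1.26 TPM against 0.265 and 0.170 TPM in livers 1 and 2. Upk3b, the other marker, was also highest in that liver (0.897 against 0.317 and 0.140 TPM). The T, B and NK cell list had 1 of 13 listed, Gzma, which fell by 1.38 (a call lost without Fgf18 f/f liver 3 or Fgf18ΔHSC liver 2). The glia and neuron list had 1 of 9, Tubb3, which rose by 2.01, from 2, 2 and 3 to 18, 23 and 15 reads. The part of the cell mixture in the differences of the 6 genes was not tested.

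The listed genes most like each of the 6 were sought among 1423 other genes (1424 for Hgf, Des and Hand2) with a mean of at least 1 TPM, by the root mean square difference of the log2 profiles over the 6 livers after subtraction of each gene's mean. Hgf was closest to 2310015A10Rik (0.0630), Aak1 (0.0635) and Twnk (0.0781). Ecm1 was closest to Rad18 (0.0907), to C1qa (0.0987), a macrophage complement gene, and to Bco1 (0.101), a carotenoid oxygenase. For Hand2 the closest was Gdf2 (0.141), also a marker on the HSC list, then Rgs2 (0.142) and the bile acid transporter gene Slc10a2 (0.166). Tagln was closest to AC122273.1 (0.0781), its antisense partner, then to D030056L22Rik (0.0881) and Zfp369 (0.129). For Des the values were 0.160 for D11Wsu47e, 0.164 for Pop1 and 0.171 for Zfp839. Acta2 had no close match, with 0.310 for Gm36041, 0.314 for the water channel gene Aqp1 and 0.337 for Ccdc125. Among the 6 genes themselves, the closest pair was Ecm1 and Tagln (0.213) and the most distant Des and Acta2 (0.731). The likeness is over 6 livers in 2 groups and is a description of these profiles.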

How the data were processed

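RNA-seq was performed on whole livers of 3 Fgf18 f/f and 3 Fgf18ΔHSC mice after I/R. According to the methods and the submitters' processing notes, the authors extracted RNA with TRIzol, built stranded mRNA libraries, trimmed reads with cutadapt 2.5, aligned them to GRCm38 with HISAT2 2.1.0, counted them per gene with featureCounts 1.6.3 with DESeq2 for the test between groups. The authors deposited a single table of 3201 genes with a value per liver, taken as TPM, and with columns of their own comparison, a log2 fold change, a p-value and an adjusted p-value, which were read only to see how genes were selected.

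Gene positions and joined exon lengths came from GENCODE M21 (GRCm38), which matched 3196 genes. TPM times length gave whole reads, within 0.02 reads, in all 6 livers for 2933 genes. Acta2 was whole with another length, found by search. Only reads behind single genes are known here, not library totals. The reads on a gene set its counting error, and the spread between livers can be far larger, as for Acta2.

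log2(TPM + 0.1) was compared over all 3201 genes with limma 3.58.1 in R 4.3.3 (lmFit, eBayes with trend, 3 livers against 3, no block, no filter). Calls required an adjusted p (Benjamini-Hochberg, over all genes) below 0.05 together with a log2 fold change beyond 1 in size. Gene lists were described by counts and medians in Python 3.11.15. The fit was tested on simulated data. The 6 genes and the lists were chosen with earlier results of these data known. From each list, all genes were named where at most 8 were listed, and otherwise the 4 largest called changes, except 1 gene of the matrix list that is not reported here. Genes of cell type lists serve as examples, and Lrat, Reln, Tmem56 and Fosb were added after their values were seen. For likeness, 3 genes were named for each of the 6. Alternatives were pseudocounts, a filter, rescaling, no trend, a replicate block, protein-coding genes alone, no fold limit, voom and each liver left out.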

Additional observations from a re-analysis of the deposited data

How the results depend on the processing

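All 6 genes kept their direction under every alternative in which they could be fitted. Hgf, Des and Hand2 have a mean under 1 TPM and could not be fitted with the filter on low values, which left 3 of the 6 called. With a pseudocount of 1, which shrinks low genes by construction, 3 were called, and the log2 fold changes of the others fell under the limit, to 0.47 for Hgf, 0.38 for Des and 0.74 for Hand2. With livers rescaled by the median ratio 1 was called, and the values were 0.11 for Hgf, 0.21 for Des, 0.42 for Ecm1, 1.0 for Acta2 and 0.25 for Tagln. The order of Acta2 and Hand2 depended on the processing. Acta2 changed more with a pseudocount of 1 (1.15 against 0.74). Hand2 changed more with a pseudocount of 0.01 (2.21 against 2.08) and with voom (2.22 against 2.07). With 1 liver left out, from 4 to 6 were called, with ranges of 0.90 to 1.07 for Hgf, 0.89 to 1.25 for Des, 1.30 to 1.6 for Ecm1, 1.6 to 2.0 for Hand2, 1.5 to 2.22 for Acta2 and 1.10 to 1.38 for Tagln. Over all listed genes, 1333 were called higher and 961 lower. These became 266 and 566 with a pseudocount of 1, 281 higher with rescaled livers and 2005 higher without the limit on the fold change. With the filter, 522 of the 1424 genes that it left in the fit were called higher. With 1 liver left out they ranged from 1204 to 1377 and from 907 to 975. Counts for gene lists moved too: of resting HSC markers 8 were called higher, but 3 with a pseudocount of 1, and of matrix genes 16, but 6. With the filter these counts were 3 and 8, which were all the higher genes of these lists left in the fit. Counts with the filter are thus out of fewer genes. With a pseudocount of 1, higher calls also went from 5 to 3 for contractile genes, 4 to 1 for latent TGF-beta, 6 to 2 for stretch and serum response factor targets, 4 to 2 for intermediate filaments (also 2 with the filter), 2 to 0 for lineage factors, 1 to 0 for HGF signalling (both 0 with the filter) and 5 to 3 for macrophages. The replicate numbers 1 to 3 mark different animals, and deviations of same-numbered livers correlated at 0.0574, 0.006 and 0.0307. With the replicate number as a block, 1337 genes were called higher and 963 lower, and all 6 genes remained called (log2 fold changes unchanged, limma adjusted p of 0.00511 for Hgf, 0.00185 for Hand2 and 0.00129 for Acta2). The SE was largest for Acta2 (0.38), Hand2 (0.26) and Des (0.24). These 3 genes also had the fewest reads in Fgf18 f/f livers, but for Acta2 the SE was 0.27 without Fgf18ΔHSC liver 2.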
